A study of Homo sapiens with 6 samples.

Results

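Among the transcripts that the tumour suppressor p53 is known to switch on, 7 were followed in CaSki cells, an established human cervical squamous carcinoma line, cultured with or without recombinant TGF-β1. They were MDM2, TP53I3, TP53INP1, ZMAT3, RPS27L, SESN1 and SESN2, taken as a named list, and all 7 were found through 25 probe sets that the platform annotation ties to 1 of these symbols. This is 7 of 19775 genes and 25 of 41091 probe sets with a single annotated gene. The study hybridised 6 arrays: 3 from cells given TGF-β1 at 2 ng/mL and 3 from cells in medium without it, both grown in serum-supplemented RPMI1640. Its stated question was which transcripts respond to TGF-β1, with attention to that pathway. CaSki is 1 cell line. The sources used here give neither the length of treatment nor whether the 3 arrays of a group came from separate cultures, and p-values then measure only the spread between arrays, which may be technical. In bulk RNA, a higher level per cell and a larger share of expressing cells cannot be told apart.

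p53 is a DNA-binding transcription factor that is held at a low level by ubiquitination and rises after DNA damage and other stress. Its targets arrest the cell cycle, repair DNA, adjust metabolism and redox balance, and promote cell death, and MDM2 closes a feedback loop by marking p53 for degradation. In cells that carry a high-risk papillomavirus, as CaSki does, the viral oncoprotein E6 recruits the cellular ubiquitin ligase UBE3A to p53 and lowers its amount. p53 protein and viral transcripts were not analysed here.

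Within a group, arrays correlated at r from 0.9943 to 0.9963, and between groups at 0.9916 to 0.993. In both groups array 1 stood apart in the ratio of 3′ to 5′ signal of the GAPDH and ACTB controls, which reflects RNA integrity, at 1.15 in TGF-β1-treated and 1.19 in untreated cells (log2), against 0.690 to 0.863 on the other 4 arrays. Of 7 measured squamous carcinoma markers 7 lay above the array median. So did 13097 of all 19775 genes, so lying above it does not mark a cell type as present. CDKN2A, which is high in papillomavirus-positive carcinoma, averaged 11.14 ± 0.015 in TGF-β1-treated and 10.9 ± 0.146 in untreated cells (log2, SD, n = 3 each). Of those 7, KRT14, a basal keratin, rose by 0.77 and EPCAM, an epithelial adhesion molecule, fell by 0.70 on the log2 scale. Beside this and the marker counts below, 4.03% of all genes rose and 4.47% fell (limma, adjusted p below 0.05). Of 5 immune markers 0 passed the test in either direction, and 2 lay above the array median, CSF1R at 5.78 and 5.43 and CD3E at 4.81 and 4.74 in TGF-β1-treated and untreated cells. For CSF1R the treated arrays lay above the untreated arrays (adjusted p = 0.106). Of 9 fibroblast markers 2 rose, COL1A1 and FAP, and 7 did not pass. DCN, THY1 and PDGFRB also lay above the array median, at 4.97, 4.54 and 4.29 in TGF-β1-treated and 4.70, 4.59 and 4.43 in untreated cells, and COL1A2, COL3A1, PDGFRA and LUM lay below it. COL1A1 and FAP rose by 1.58 and 0.89 on the log2 scale, and the dimmer COL1A1 probe sets differed by 0.04 to 1.29. The median difference of the 9 fibroblast markers was 0.07. Their mean level ran from 4.94 to 5.01 on the TGF-β1 arrays and from 4.59 to 4.72 on the untreated arrays. The part of this mean in the results was not tested. Of 5 endothelial markers 3 lay above the array median, among them TEK at 5.163 in TGF-β1-treated and 5.025 in untreated cells. KDR and CDH5 lay below it. KDR rose and CDH5 fell, at 2.97 and 2.91 in TGF-β1-treated and 2.67 and 3.31 in untreated cells. With both arrays numbered 1 left out, 0 of the 5 passed, and 627 of all 19775 genes were called, against 1680 with all arrays. SMAD7, the inhibitory SMAD that TGF-β induces, rose 3.17-fold.

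Of the 7 genes, 6 rose with TGF-β1 and 0 fell, where 4.03% of all genes rose and 4.47% fell (limma, adjusted p below 0.05 by Benjamini-Hochberg over all 19775 genes). The TGF-β1 arrays lay above the untreated arrays for 7 of 7, against 12.9% of all genes. The median difference of the 7 was 0.598 (log2, treated minus untreated), against -0.0027 over all genes, and the range ran from 0.23 for SESN1 to 1.82 for TP53I3. The 7 were listed with earlier results of these data known, so these counts describe them and are not an independent test of p53 targets as a class. Probe sets differ in brightness per transcript, so levels of different genes were not ranked against each other.

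**Figure D1:**
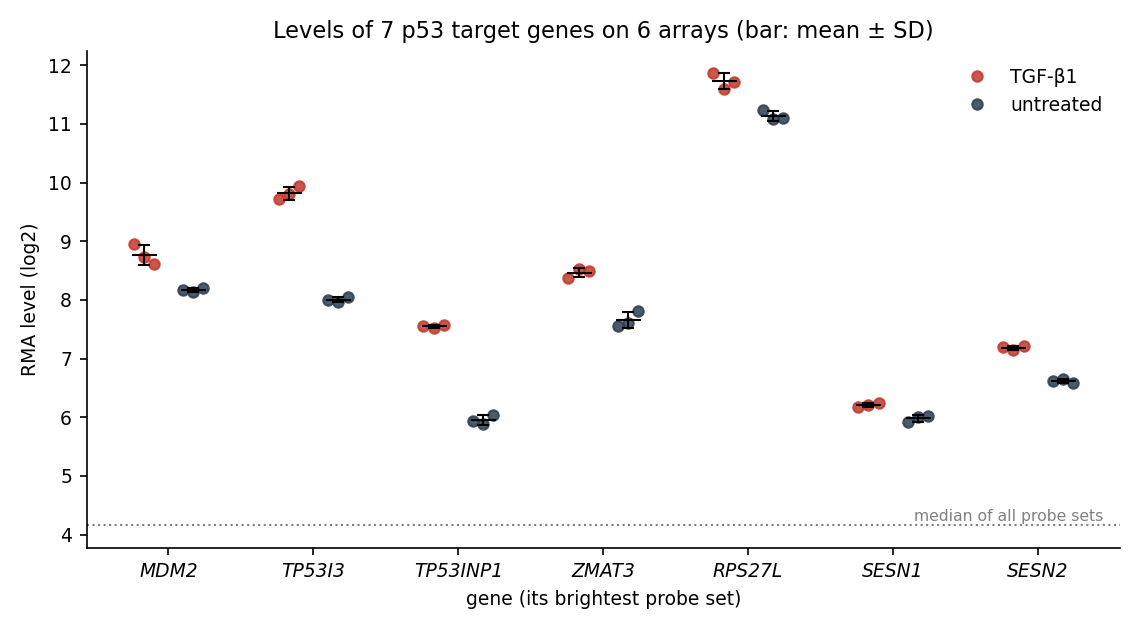
RMA level (log2) of the brightest probe set of each of the 7 genes on each array, TGF-β1 left (red) and untreated right (dark), with the mean and SD of the 3 arrays of a group and a dotted line at the median of all probe sets. For every gene the lowest TGF-β1 array lies above the highest untreated array, with the widest gap for TP53I3 and the narrowest for SESN1.

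TP53I3 encodes a quinone oxidoreductase that is linked to reactive oxygen species and p53-dependent cell death. It read 9.71, 9.80 and 9.94 on the TGF-β1 arrays, against 8.004, 7.96 and 8.04 on the untreated arrays (log2). The arrays of each group lay close together, and the groups did not overlap. The difference was 1.82 ± 0.08 (SE), a rise of 3.52-fold (limma adjusted p = 1.9e-05), and its size exceeded that of 99.9% of all genes. TP53I3 had 1 probe set, whose suffix marks sequence shared between transcripts, so no second probe set could be set beside it. Leaving out any array kept the difference between 1.76 and 1.87.

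TP53INP1 encodes a stress-induced nuclear protein that promotes p53-dependent cell death and also takes part in autophagy. It read 7.55, 7.52 and 7.57 on the TGF-β1 arrays, against 5.93, 5.88 and 6.04 on the untreated arrays (log2). The groups were far apart, and the treated arrays agreed within an SD of 0.0245. The difference was 1.60 ± 0.07 (SE), a rise of 3.02-fold (limma adjusted p = 1.9e-05). Its other 2 probe sets were dim, at mean levels of 4.42 and 2.87, and differed by 0.19 and -0.10 without passing (adjusted p = 0.237 and 0.719 over all probe sets). The mean of the 3 probe sets differed by 0.56 and was still called (adjusted p = 0.00171). Of 9 relatives of the 7 genes 1 rose and 0 fell, where 4.03% of all genes rose and 4.47% fell. The rise was TP53INP2, the relative of TP53INP1 with a role in autophagosome formation. It rose 1.62-fold, at 7.38, 7.33 and 7.26 on the TGF-β1 arrays and 6.80, 6.52 and 6.55 on the untreated arrays.

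ZMAT3 encodes a zinc finger protein that binds RNA and affects splicing and mRNA stability. It read 8.38, 8.52 and 8.50 on the TGF-β1 arrays, against 7.554, 7.603 and 7.806 on the untreated arrays (log2). Untreated array 3 was the highest of its group and still lay below all treated arrays. The difference was 0.81 ± 0.09 (SE), a rise of 1.76-fold (limma adjusted p = 0.00142). ZMAT3 had the most probe sets called: 4 of its 5 probe sets passed over all probe sets, at differences from 0.59 to 0.91, and 3 of these 4 were not the one that represents the gene. The fifth, at a mean level of 3.95, differed by 0.48 without passing (adjusted p = 0.091), and in all 5 the treated arrays lay above the untreated arrays. Over all probe sets tested, 2.36% rose.

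MDM2 encodes the ubiquitin ligase that degrades p53. The gene has an upstream promoter and an internal promoter that is known for a pair of p53 response elements, and the internal promoter window is shown because it holds the closest matches to the p53 site among the windows examined. In the RefSeq promoter table (GRCh38.p14), 6 of the 7 genes had 12 windows of 300 bases, from 250 before to 50 after a start. TP53INP1 had no window in it. The exact p53 site, in which 2 consensus decamers of 10 bases are separated by 0 to 13 bases, was found in 0 of the 12 windows and in 0.0285% of 35116 windows of all genes. The consensus is its own reverse complement, so both strands were read. With up to 1 mismatch per decamer outside its central bases and the same spacer, 0 of the 12 windows held a site, against 0.897% of all windows. A looser setting, chosen after the exact search, allowed up to 3 mismatches anywhere in the 20 bases and no spacer. Under it 4 of the 12 windows held a match, against 5.2% of all windows. These were 2 overlapping MDM2 windows with the same pair of sites, 1 RPS27L window and 1 SESN1 window. More than 1 such site was found in 0.313% of all windows. The MDM2 window lies on the plus strand at chr12:68808767-68809066, and capitals mark the 2 matches, which begin 94 and 56 bases before the start and have 2 and 3 mismatches.

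MDM2 internal promoter: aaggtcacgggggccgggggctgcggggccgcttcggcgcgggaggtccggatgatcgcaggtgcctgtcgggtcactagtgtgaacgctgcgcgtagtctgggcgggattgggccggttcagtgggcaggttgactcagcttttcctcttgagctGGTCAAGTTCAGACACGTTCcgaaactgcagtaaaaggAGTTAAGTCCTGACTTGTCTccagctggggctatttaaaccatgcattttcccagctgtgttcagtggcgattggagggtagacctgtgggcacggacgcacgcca

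A match is a description of letters, and binding was not measured. The SMAD-binding pentamer GTCTG, or its reverse complement CAGAC, was present in 8 of the 12 windows and in 45.3% of all windows. In the MDM2 window 1 of its 2 SMAD pentamers lay inside a marked p53 match. A run of 3 pentamers TGCCC or TGTCC, the unit of the repeat through which p53 is known to act on TP53I3, was found in 0 of the 12 windows and in 0.0256% of all windows on either strand. The windows end 50 bases after a start, and sequence outside them was not searched. Counts of 0 therefore do not show that a gene lacks these sites.

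The brightest MDM2 probe set read 8.96, 8.74 and 8.61 on the TGF-β1 arrays, against 8.18, 8.14 and 8.20 on the untreated arrays (log2). The groups did not overlap, and the treated arrays were spread more widely, with an SD of 0.176 against 0.0286 in untreated cells. The difference was 0.60 ± 0.10 (SE), a rise of 1.51-fold (limma adjusted p = 0.00893). Treated array 1, which was the highest for MDM2, is also an array with a high 3′ over 5′ signal, and with that signal as a covariate the difference was 0.63 (adjusted p = 0.00861). Without both arrays numbered 1 the difference was 0.51 and the call was lost (adjusted p = 0.051).

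The MDM2 probe sets differed among themselves. Of 10 probe sets 2 passed, both higher, and 8 did not. The second brightest read 8.092, 7.604 and 7.779 on the TGF-β1 arrays and 7.37, 7.21 and 7.40 on the untreated arrays, without overlap, and differed by 0.50 (adjusted p = 0.0662 over all probe sets). The other probe set that passed was dimmer, with arrays that agreed closely within each group, at 4.79, 4.80 and 4.79 on the TGF-β1 arrays against 3.82, 3.74 and 3.81 on the untreated arrays. It rose 2.01-fold, more than the representative probe set. The remaining 7 differed by -0.07 to 0.30 at mean levels of 2.20 to 6.21. Which exons or transcript ends each probe set covers was not analysed here. The mean of the 10 differed by 0.27 without passing (adjusted p = 0.0507), and the brightest probe set without a shared-sequence suffix differed by 0.09 (adjusted p = 0.639).

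**Figure D2:**
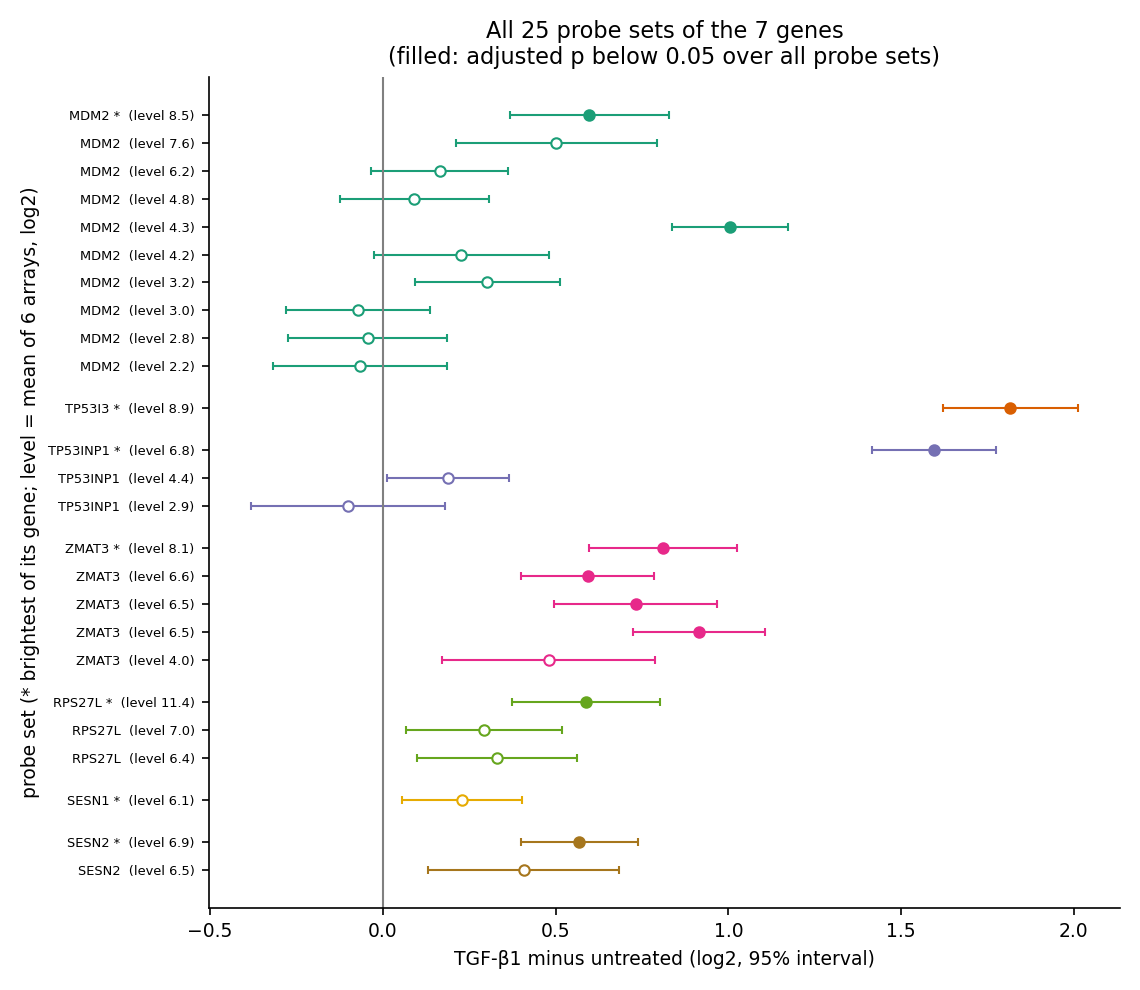
Difference between TGF-β1-treated and untreated cells (log2, 95% interval) for each of the 25 probe sets, grouped by gene, with the brightest of a gene starred and probe sets past the threshold filled. ZMAT3 has 4 filled probe sets between 0.59 and 0.91, while those of MDM2 run from -0.07 to 1.01 with 2 filled.

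RPS27L encodes a ribosomal-protein-like partner of MDM2 that is induced by p53. Its window is shown with 1 of the 3 SESN1 windows because both hold a match with 3 mismatches. The other SESN1 windows held no such match. The RPS27L window lies on the minus strand at chr15:63157428-63157727, with a match in capitals 69 bases before the start that contains 1 SMAD pentamer. The SESN1 window lies on the minus strand at chr6:109008939-109009238, with a match 49 bases before the start that overlaps a SMAD pentamer at its edge.

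RPS27L promoter: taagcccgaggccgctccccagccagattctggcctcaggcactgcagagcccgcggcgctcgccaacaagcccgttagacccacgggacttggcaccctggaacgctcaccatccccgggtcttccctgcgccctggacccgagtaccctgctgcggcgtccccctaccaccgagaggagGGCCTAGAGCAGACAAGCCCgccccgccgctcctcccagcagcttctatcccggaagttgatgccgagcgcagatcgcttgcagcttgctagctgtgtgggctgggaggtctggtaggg

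SESN1 promoter: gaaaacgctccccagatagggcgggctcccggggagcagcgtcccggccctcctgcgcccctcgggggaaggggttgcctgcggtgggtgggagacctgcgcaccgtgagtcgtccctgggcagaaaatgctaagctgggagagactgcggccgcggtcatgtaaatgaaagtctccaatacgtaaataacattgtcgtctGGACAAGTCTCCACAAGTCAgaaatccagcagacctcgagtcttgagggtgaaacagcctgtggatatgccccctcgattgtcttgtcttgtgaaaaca

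RPS27L read 11.86, 11.60 and 11.72 on the TGF-β1 arrays, against 11.23, 11.08 and 11.10 on the untreated arrays (log2). The groups did not overlap, and array 1 was the highest of both groups. The difference was 0.59 ± 0.09 (SE), a rise of 1.5-fold (limma adjusted p = 0.00682). Without both arrays numbered 1 it was 0.57 and still called (adjusted p = 0.036). Its other 2 probe sets differed by 0.29 and 0.33, without overlap between groups and without passing over all probe sets (adjusted p = 0.148 and 0.119). RPS27 is a near copy of RPS27L that encodes a subunit of the small ribosome, and probes for either could pick up the other. It stood at 13.33 ± 0.11 in TGF-β1-treated and 13.33 ± 0.0449 in untreated cells (log2, SD, n = 3 each), with a 95% interval of the difference from -0.18 to 0.19.

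SESN1 and SESN2 encode sestrins, stress-induced proteins that restrain the growth kinase complex mTORC1, SESN2 by sensing leucine. SESN2 read 7.19, 7.14 and 7.21 on the TGF-β1 arrays, against 6.61, 6.65 and 6.58 on the untreated arrays (log2). The groups stood clearly apart with SDs of 0.0385 and 0.0348 in TGF-β1-treated and untreated cells. The difference was 0.57 ± 0.07 (SE), a rise of 1.48-fold (limma adjusted p = 0.00203), and the second SESN2 probe set differed by 0.41 without passing over all probe sets (adjusted p = 0.107). SESN1 read 6.18, 6.22 and 6.24 on the TGF-β1 arrays, against 5.91, 6.01 and 6.02 on the untreated arrays. All treated arrays were higher, but by a small margin, and SESN1 did not pass (difference 0.23 ± 0.07, SE, 95% interval 0.07 to 0.39, limma adjusted p = 0.0867). When the test was limited to genes above the median level, it was called (adjusted p = 0.0389). SESN3, the sestrin known as a FOXO target, differed by 0.07 at levels of 2.99 in TGF-β1-treated and 2.92 in untreated cells, below the array median.

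**Figure D3:**
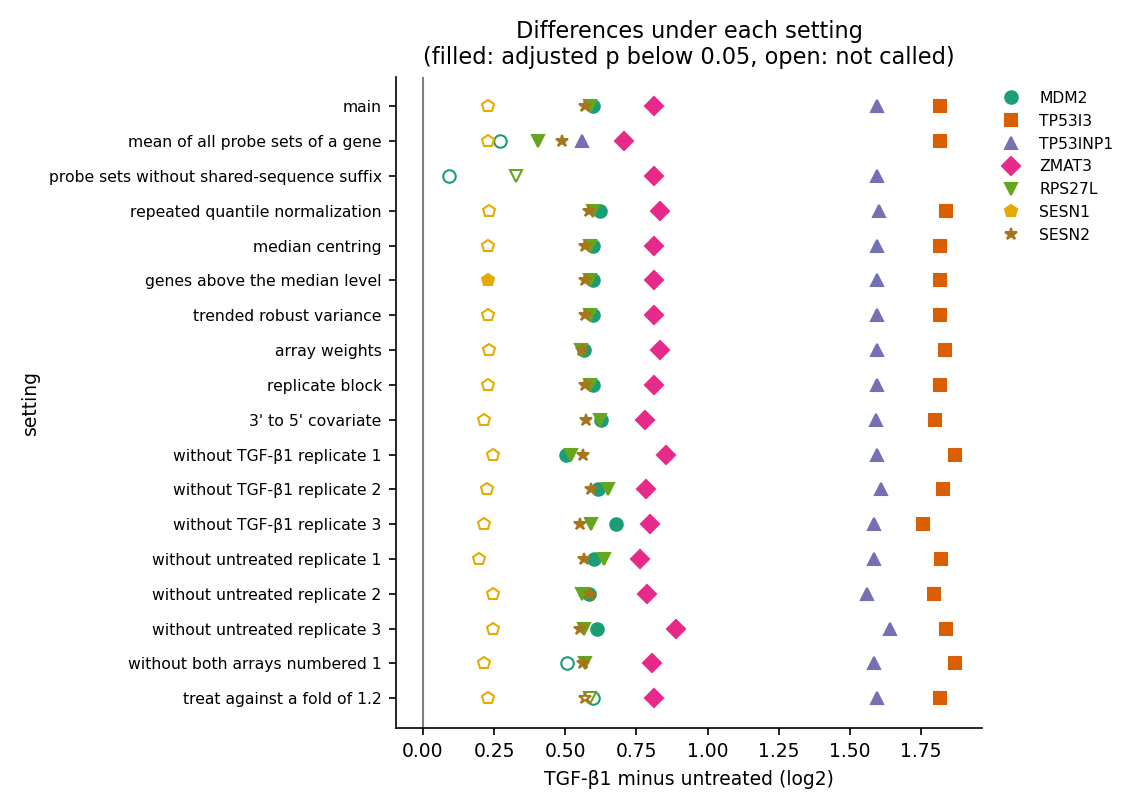
Difference between TGF-β1-treated and untreated cells (log2) for each of the 7 genes under the main setting and 17 others, with filled symbols where the adjusted p was below 0.05. TP53I3, TP53INP1 and ZMAT3 are filled under every setting that measured them, MDM2 moves between 0.09 and 0.68, and SESN1 is filled once.

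A wider list of 80 other p53 targets, of which 73 were measured, moved less evenly. Of these 17 rose, 4 fell and 52 did not pass, with a median difference of 0.06 (log2) against -0.0027 over all genes. The share that rose was above the 4.03% of all genes and the share that fell was near the 4.47%. CDKN1A, which encodes the cyclin-dependent kinase inhibitor p21, read 9.11, 9.14 and 9.14 on the TGF-β1 arrays and 8.37, 8.33 and 8.37 on the untreated arrays. It rose 1.71-fold (limma adjusted p = 4e-04), within the range of the 7 genes, and TGF-β/SMAD signalling is itself known to induce it. The count depended on the arrays: leaving out TGF-β1 array 2 or 3 or untreated array 1, 2 or 3 gave 10, 11, 9, 8 and 8 rises, leaving out TGF-β1 array 1 gave 18, and with both arrays numbered 1 left out 3 rose and 2 fell. Over all genes, rises in these fits, in the same order, numbered 463, 445, 440, 404, 452, 692 and 356, against 796 with all arrays. Fewer arrays entered these fits. Of the 17 rises among the other targets, 6 were called whichever array was left out.

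Among 23 measured targets that act in arrest and DNA repair, 5 rose and 0 fell, where 4.03% of all genes rose. Besides CDKN1A these were RRM2B, a ribonucleotide reductase subunit that supplies DNA repair, AEN, an apoptosis-linked nuclease, GADD45A, a stress sensor, and DDB2, which recognises ultraviolet damage. RRM2B read 7.98, 8.03 and 7.93 on the TGF-β1 arrays and 7.38, 7.40 and 7.52 on the untreated arrays, and rose 1.46-fold. DDB2 and AEN rose by 0.49 and 0.53 on the log2 scale. CCNG1, a cyclin that is among the most regular p53 targets, differed by 0.06 (95% interval -0.11 to 0.23). PPM1D, the phosphatase that turns off p53 signalling, differed by 0.23 without passing (adjusted p = 0.119). In this list 1 gene rose without both arrays numbered 1, where 356 of all genes rose, against 796 with all arrays.

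Among 24 measured targets that act in cell death, 4 rose and 2 fell, where 4.03% of all genes rose and 4.47% fell. The falls were the larger changes. BID, which relays death signals to mitochondria, read 7.75, 7.82 and 7.74 on the TGF-β1 arrays and 8.70, 8.79 and 8.66 on the untreated arrays, and all 3 of its probe sets fell, by 0.86 to 1.10. PMAIP1, which encodes the death protein NOXA, read 7.74, 7.69 and 7.84 on the TGF-β1 arrays and 8.49, 8.46 and 8.54 on the untreated arrays. PHLDA3, an inhibitor of the kinase AKT, DRAM1, a lysosomal autophagy protein, NINJ1, a membrane rupture protein, and TRIAP1, an inhibitor of apoptosis, rose by 0.49, 0.40, 0.36 and 0.27, and none of these 4 was called in all 6 of the fits with an array left out. BAX, the mitochondrial pore former, did not pass (0.36, adjusted p = 0.0894), although its second probe set did (0.44, adjusted p = 0.0405 over all probe sets). FAS, the death receptor, differed by 0.08 (95% interval -0.11 to 0.27). The count of rises lay between 0 and 4 with 1 array left out, where 404 to 692 of all genes rose. With both arrays numbered 1 left out 0 rose and 2 fell. That fit called 627 of all genes, 356 of them higher, against 1680 and 796 with all arrays.

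Among 26 measured targets that act in metabolism, secretion and other roles, 8 rose and 2 fell, beside 4.03% and 4.47% of all genes. CES2, a carboxylesterase, read 9.50, 9.82 and 9.97 on the TGF-β1 arrays and 8.60, 8.75 and 8.76 on the untreated arrays. It rose by 1.06 on the log2 scale, and its other 2 probe sets rose too, by 0.91 and 0.85. PRKAB2, a regulatory subunit of the energy sensor AMPK, rose by 0.39 on the log2 scale. PRDM1, a transcriptional repressor, rose by 0.68, but its dimmer probe sets differed by 0.20 and 0.22 without passing. The growth factor KITLG and the small GTPase RAP2B were the falls, at -0.50 and -0.48. TIGAR, which lowers glycolytic flux, rose by 0.31, a call that 5 of the 6 fits with an array left out did not repeat, all but the one without TGF-β1 array 1 (adjusted p at most 0.108). GDF15, a secreted p53 target, was at 3.47 ± 0.143 in TGF-β1-treated and 3.76 ± 0.147 in untreated cells, below the array median, and did not pass (adjusted p = 0.144). The count of rises lay between 3 and 8 with 1 array left out, where 404 to 692 of all genes rose. With both arrays numbered 1 left out 2 rose and 0 fell, in the fit that called 627 of all genes, 356 of them higher.

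**Figure D4:**
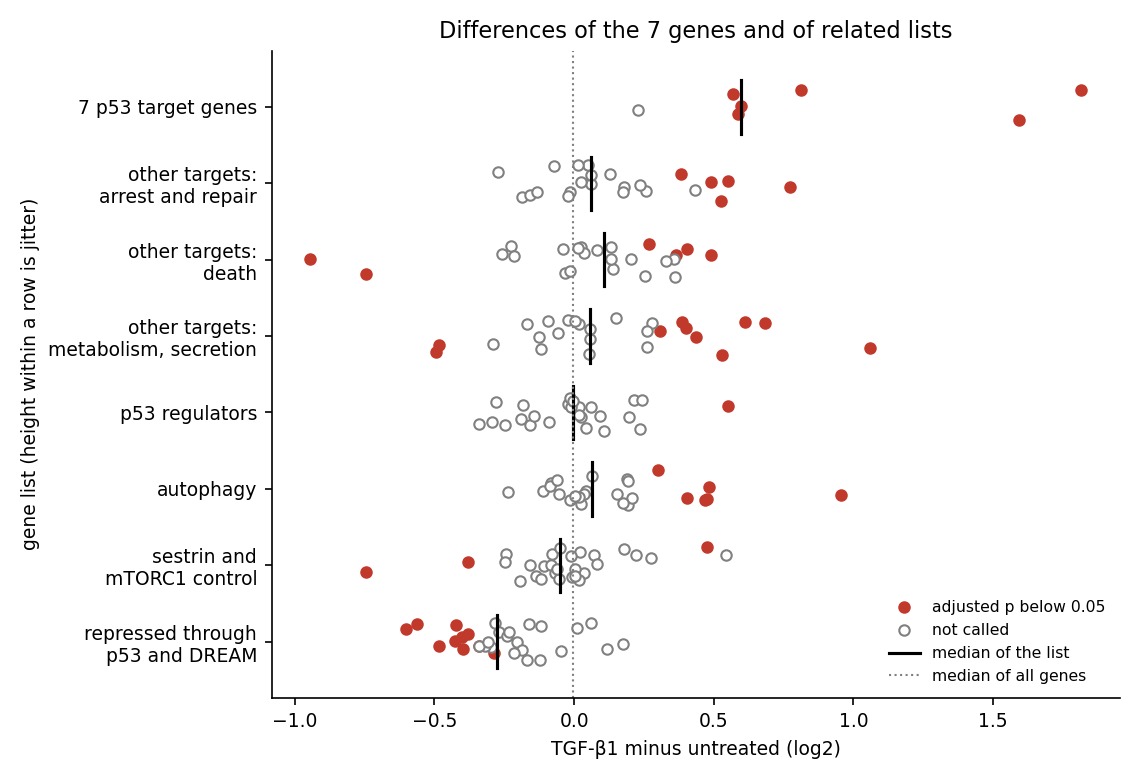
Difference between TGF-β1-treated and untreated cells (log2) for the 7 genes and each measured gene of 7 related lists, red where the adjusted p was below 0.05, with the median of each list as a bar and the median of all genes as a dotted line. The 7 genes all lie to the right of 0.2, while the 3 lists of other targets spread to both sides and have BID and PMAIP1 as their lowest genes.

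Of 25 measured regulators of p53, 1 rose and 0 fell, with a median of 0.00 (log2), and the share that rose was near the 4.03% of all genes. The rise was PPP1R13L, which encodes the p53 inhibitor iASPP, at 8.40, 8.40 and 8.51 on the TGF-β1 arrays and 7.95, 7.88 and 7.82 on the untreated arrays (difference 0.55 ± 0.07, SE, limma adjusted p = 0.00363). MDM4, the partner of MDM2, differed by -0.01 (95% interval -0.23 to 0.20). UBE3A, the ligase that E6 recruits, averaged 9.25 ± 0.0552 in TGF-β1-treated and 9.34 ± 0.0335 in untreated cells (log2, SD, n = 3 each), which differed by -0.09 (95% interval -0.25 to 0.07).

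Sestrins, TP53INP1 and DRAM1 act on growth control and autophagy, and genes of these processes were read beside them. Of 25 measured autophagy genes 6 rose and 0 fell, with a median of 0.06 (log2), where 4.03% of all genes rose and 4.47% fell. These 6 include DRAM1, already counted among the cell death targets, and ULK1, counted again in the mTORC1 list. GABARAPL1, which encodes a protein of the autophagosome membrane, read 8.24, 8.34 and 8.21 on the TGF-β1 arrays and 7.30, 7.26 and 7.37 on the untreated arrays, and both of its probe sets rose. MAP1LC3B, WIPI1 and GABARAP rose by 0.48, 0.47 and 0.30, while a difference of 0.07 was read from the second MAP1LC3B probe set. With an array left out, GABARAP lost its call in 6 of 6 fits and WIPI1 in 4 (limma adjusted p at most 0.103 and 0.0685). The second WIPI1 probe set differed by 0.37 without passing (limma adjusted p = 0.112 over all probe sets). Without 1 array 2 to 5 genes rose, and without both arrays numbered 1, 1 gene rose. Over all genes 404 to 692 and 356 rose in these fits, against 796 with all arrays. Of 29 genes of sestrin and mTORC1 control 1 rose and 2 fell, shares near the 4.03% and 4.47% of all genes. PRKAA2, a catalytic subunit of the energy sensor AMPK, read 5.28, 5.27 and 5.12 on the TGF-β1 arrays and 6.05, 5.90 and 5.96 on the untreated arrays, and SEH1L fell by 0.38, a call lost in 4 of the 6 fits with an array left out, those without TGF-β1 array 2 or 3 or untreated array 1 or 3 (adjusted p at most 0.0676). ULK1, the kinase that starts autophagy, rose by 0.47. Of these 6 fits 5 did not call it, all but the one without TGF-β1 array 1 (limma adjusted p at most 0.117). Without both arrays numbered 1 the mTORC1 list had 0 rises and 1 fall, and 627 of all genes were called, against 1680 with all arrays.

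SESN2 is also known as a target of the stress factor ATF4, and sestrins as targets of FOXO factors. Of 22 measured ATF4 targets 1 rose and 2 fell, with a median of -0.06, where 4.03% of all genes rose and 4.47% fell. ATF3, a stress-induced transcription factor, was the rise, at 8.76, 8.70 and 8.92 on the TGF-β1 arrays and 7.51, 7.44 and 7.38 on the untreated arrays. SLC7A11 and XPOT were the falls, at -0.48 and -0.42. Of 18 FOXO targets 2 rose and 4 fell, with a median of -0.04, against the same 4.03% and 4.47%. The rises include GADD45A (0.38), already counted among the arrest and repair targets. CITED2 and SOD2 fell by 0.73 and 1.08, and FBXO32 by 0.45. The dimmer CITED2 probe sets differed by -0.15 and -0.49 without passing (limma adjusted p = 0.459 and 0.0796 over all probe sets). SOD2 was read from a single probe set at a mean level of 5.50. Without both arrays numbered 1, 0 of the FOXO targets rose and 2 fell, and of the ATF4 targets 1 rose and 0 fell. That fit called 627 of all genes, 356 of them higher, against 1680 and 796 with all arrays.

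Genes that p53 is known to lower through p21 and the DREAM complex, which act in replication and mitosis, were lower in part. Of 30 measured members 0 rose and 10 fell, with a median of -0.275 (log2), where 4.47% of all genes fell. MCM10, a replication factor, read 6.95, 7.05 and 6.99 on the TGF-β1 arrays and 7.59, 7.62 and 7.59 on the untreated arrays. BUB1, BUB1B and TTK, kinases of the mitotic checkpoint, fell by 0.49, 0.56 and 0.40 on the log2 scale. The dimmer BUB1 probe sets, at mean levels of 2.41 to 5.55, differed by -0.29 to 0.14 without passing over all probe sets. These genes also follow the share of dividing cells, which was not measured. Of the 10 falls 4 were called whichever array was left out, and without both arrays numbered 1 the list had 3 falls. The last of these fits called 627 of all genes in either direction, against 1680 with all arrays.

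For each of the 7 genes, the 2 other genes above the median level with the closest pattern over the 6 arrays were found by Pearson correlation, given as a description because the arrays share the treatment difference. TP53INP1 was closest to SNAI2 and LMCD1 (r = 0.9997 and 0.9996), and TP53I3 to FHL2 and GADD45B (r = 0.9987 for both). ZMAT3 was closest to ANTXR1 and the long non-coding RNA SCAT1 (r = 0.9973 and 0.9969), MDM2 to EFR3A and TEK (r = 0.9969 and 0.9939), and RPS27L to FADS3 and GOLGA2 (r = 0.997 and 0.9968). SESN2 was closest to SRD5A1 and BCKDHA (r = 0.9999 and 0.9994), and SESN1 to NICOL1 and NCOA4 (r = 0.9979 and 0.9972).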

How the data were processed

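Gene expression was measured on 6 Affymetrix 3′ arrays of 54675 probe sets. The deposited values are log2 expression estimates that the authors made with Affymetrix Expression Console and RMA, per the submitters' processing notes, with no version given in the sources used here. That they are log2 was read from their range, from 1.57 to 14.5. RMA subtracts background, equalises arrays and understates differences of dim probe sets. No detection call was available, and the precision is limited by 3 arrays per group.

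Names came from the platform annotation (41091 probe sets with 1 symbol, 1801 with several, 11721 without a name here). The brightest probe set, by its mean over the 6 arrays, stood for a gene. The comparison used lmFit and eBayes of limma 3.58.1 (R 4.3.3) without covariate or filter, with p-values adjusted by Benjamini-Hochberg over 19775 genes, or over 41091 probe sets where single probe sets are compared. The fit was tested on simulated data. Same-numbered arrays deviated together at r of 0.2, 0.056 and 0.0907, so the number was not used as a block.

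The members and lists were chosen with earlier results of these data known. Named were the 7 members, a panel of 20 genes, some of which are not reported here, and up to 4 called genes per list with the smallest p. Outside this rule DDB2, NINJ1, TRIAP1, RAP2B and the fibroblast and immune markers without a call were named with their values known. The alternatives tried were 2 other probe set rules, 2 normalisations, a level filter, 2 variance models, a replicate block, a 3′ to 5′ covariate, the removal of arrays and treat of limma with a fold of 1.2.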

Additional observations from a re-analysis of the deposited data

How the results depend on the processing

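All 7 differences kept their positive sign under each of the 17 alternatives that measured them, and TP53I3, TP53INP1 and ZMAT3 stayed called. The number of the 7 genes that rose was 6. It was 5 with the mean of all probe sets and 7 with only genes above the median level tested. With probe sets that lack a shared-sequence suffix it was 2 of 4 measured, and with treat against a fold of 1.2 it was 3. It was 6 whichever array was left out, and 5 without both arrays numbered 1. The median difference of 0.598 became 0.488 with the mean of all probe sets. MDM2 lost its call in 4 alternatives and RPS27L in 2, while SESN2 missed it with treat (adjusted p = 0.0535). All genes called were 1680, and 1004 with unsuffixed probe sets, 2629 with a trended robust variance, 627 without both arrays numbered 1 and 327 with treat. Without single arrays they were 768 to 1326, where fewer samples enter the fit. Those higher were 796, and 482, 356 and 206 with unsuffixed probe sets, without both arrays numbered 1 and with treat, and 404 to 692 without single arrays. Rises among other p53 targets were 17, but 3 without both arrays numbered 1, 2 with treat, and 8 to 18 without single arrays, and the 4 falls became 2 in the first 2 of these settings. Promoter windows with a p53 site were 0, and 4 with 3 mismatches and no spacer, chosen after seeing the data. With the replicate number as a block, 6 of the 7 genes rose, 15 other targets rose and 1280 genes were called, and 5 of 6 arrays correlated best with their own number, a hint from the data and not from the design.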
